A study of Mus musculus with 10 samples.

Results

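The 56 genes described here encode potassium channel subunits, and in the case of Kcnrg a regulator of channel assembly, outside the Kcnc, Kcnq and Kcnip groups and the pair Kcnd2 and Kcnd3. A gene was a member when its symbol started with Kcn, was not one of those, and had at least 100 unique molecular identifiers (UMIs, counts of captured transcript molecules) over the barcodes with at least 500 UMIs. Of 94 Kcn genes among the 24837 genes of the matrix, 79 met the condition on the symbol and 56 of these met the condition on UMIs. The other 23 had between 1 and 81 UMIs and are not described further. Just below the threshold were Kcnj5 with 81 UMIs, Kcnk18 with 71 and Kcnv2 with 64, and just above it were Kcnj16 with 122, Kcns1 with 167 and Kcnk7 with 182. By family the members were 4 Kcna, 3 Kcnab, 2 Kcnb, 8 electrically silent subunits (Kcnf, Kcng, Kcns and Kcnv), 8 Kcnh, 3 of the BK channel, 3 Kcnn, 3 Kcnt or Kcnu, 10 Kcnj and 10 Kcnk genes, and Kcnd1 and Kcnrg.

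Potassium channels let potassium leave the cell along its gradient, so they set the resting potential and end action potentials. Voltage-gated alpha subunits (Kcna, Kcnb, Kcnd and Kcnh) open on depolarization, beta and silent subunits change how they gate, and the BK (Kcnma1) and SK (Kcnn) channels open with intracellular calcium. Inward rectifiers (Kcnj) and two-pore channels (Kcnk) carry current near rest, and in glia they take part in the clearance of extracellular potassium.

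All 10 samples were hippocampus nuclei of WT animals of the strain C57B/6J, 4 to 7 months old and not stimulated, and they form 1 group. Of these, 4 carry titles that call them RNASET2 controls, with the same characteristics as the rest. Frozen tissue was used, and nuclei were stained with a DNA dye and sorted before droplet capture with a 3' end chemistry. The 10 samples were deposited as 1 matrix whose barcodes carry 7 suffixes, here called barcode sets, and the labels do not say which sample, animal or day a set comes from.

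Because samples could not be told apart, all nuclei count as 1 sample. Nuclei are not replicates, no test was made, and every 95% interval given covers counting error alone. The level of a gene in a class is given as CPM, its UMIs summed over the class and scaled to the total UMIs of the class. Long genes tend to give more UMIs in nuclei, so levels are compared within a gene and never between genes. Where values of single barcode sets are given, they show the spread between sets and cannot be read as spread between mice. A gene is called higher or lower in a comparison when the CPM of the 2 sides differ at least 2-fold and the gene has at least 100 UMIs over both sides.

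The matrix held 101300889 UMIs in 15661 barcodes, and 15342 nuclei were used. Sets 1 to 4 were deeper, with a median of 5477 to 8176 UMIs per barcode, than sets 5 to 7, with 1012 to 2822. Set 6 had 1 non-neuronal nucleus, and set 7 had 1 excitatory and 0 inhibitory nuclei beside 39 Cajal-Retzius nuclei. The doublet caller marked 1.36% of nuclei, and under 0.5% in sets 2, 5, 6 and 7, where it is not taken to have worked. Barcode sequences found in more than 1 set numbered 21 of 15640. Neurons were deeper than non-neuronal nuclei, at a mean of 7598 against 2018 UMIs.

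Clusters were made without any Kcn gene, and each class name stands for nuclei that resemble a cell type by its markers. There were 2438 dentate granule (led by Glis3, Plk5 and Dsp), 2889 CA1 pyramidal (Fibcd1, Man1a, Ndst3), 1260 CA2/CA3 pyramidal (Nectin3, Trps1), 958 subicular or cortical excitatory (Tshz2, Fn1, Pamr1) and 1052 other excitatory nuclei. The last were named from general excitatory markers, and 1 of their clusters, with 660 nuclei, also had Tshz2 among its leading genes, so this class and the subicular or cortical one are not fully separate. Inhibitory classes held 393 nuclei with somatostatin markers (Sst, Elfn1), 338 with parvalbumin markers (Btbd11, Cntnap4), 355 of an Adarb2 class with Vip or Cnr1 and 249 of an Adarb2 class with Lamp5 or Ndnf. The remaining classes were 109 Cajal-Retzius (early-born Reln neurons, counted in neither the excitatory nor the inhibitory neurons, and in neither side where neurons are compared with non-neuronal nuclei), 2567 oligodendrocyte, 343 oligodendrocyte precursor, 129 astrocyte, 385 microglia and 49 vascular nuclei. Clusters with 1828 nuclei had too few markers of a class or markers of another, and stayed unnamed. One of them, with 762 nuclei, had 679 from set 1. Named classes held such clusters too. Set 1 gave 645 of the 658 nuclei of a granule cluster, 595 of 604 of an oligodendrocyte cluster and 200 of 209 of a CA1 cluster. Of the 1374 nuclei of another CA1 cluster, 518 were from set 5 and 796 from set 6. The sets of a class thus also differ in which of its clusters they hold.

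The level of neuronal RNA in other classes was read from 8 genes, Slc17a7, Camk2a, Syt1, Rbfox3, Grin2a, Grin2b, Nrgn and Sv2b. Their median level, as a percent of that in excitatory neurons, was 3.55% in oligodendrocytes (range 2.48 to 44.8%), 8.72% in microglia (4.87 to 48.7%), 11.9% in astrocytes (6.44 to 77.4%), 15.2% in oligodendrocyte precursors (5.05 to 35.6%) and 43.0% in vascular nuclei (9.61 to 77.1%). Of the 56 members, 17 stood above the highest of these 8 percentages in oligodendrocytes, 15 in microglia, 18 in astrocytes, 39 in precursors and 20 in vascular nuclei. A level below those percentages lies within what these neuronal genes reached there. The counts set no minimum of UMIs, and Kcnh6 is in those of astrocytes and of precursors with 1 UMI each. The share of all genes above the same percentages was not at hand, so the counts show nothing particular to the members. In whole classes, fewer nuclei with a transcript and fewer transcripts per nucleus cannot be told apart from the CPM alone.

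Promoter sequence is shown for the 3 members with the widest gaps in 3 of the comparisons that follow: Kcnmb2 (ENSMUSG00000037610) between inhibitory and excitatory neurons, Kcnh7 (ENSMUSG00000059742) between CA1 and CA2/CA3, and Kcnj10 (ENSMUSG00000044708) between non-neuronal nuclei and neurons. They were chosen after their values were seen. Each run is the 250 bases before the RefSeq start on GRCm38.p6, 5′ to 3′ on the strand of the gene, with CpG dinucleotides in capitals. The Kcnmb2 run lies at chr3:31902453-31902702 on the plus strand, the Kcnh7 run at chr2:63184288-63184537 on the minus strand, and the Kcnj10 run at chr1:172340960-172341209 on the plus strand.
Kcnmb2: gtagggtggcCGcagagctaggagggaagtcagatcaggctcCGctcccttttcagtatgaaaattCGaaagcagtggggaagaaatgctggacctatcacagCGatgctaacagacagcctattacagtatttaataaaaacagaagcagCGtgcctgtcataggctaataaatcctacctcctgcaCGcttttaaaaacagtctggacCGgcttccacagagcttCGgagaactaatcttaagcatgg
Kcnh7: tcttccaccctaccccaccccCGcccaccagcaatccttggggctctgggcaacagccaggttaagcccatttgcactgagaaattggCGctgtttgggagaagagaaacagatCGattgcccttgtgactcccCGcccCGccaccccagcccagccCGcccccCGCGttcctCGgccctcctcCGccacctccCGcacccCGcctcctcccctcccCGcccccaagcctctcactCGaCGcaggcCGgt
Kcnj10: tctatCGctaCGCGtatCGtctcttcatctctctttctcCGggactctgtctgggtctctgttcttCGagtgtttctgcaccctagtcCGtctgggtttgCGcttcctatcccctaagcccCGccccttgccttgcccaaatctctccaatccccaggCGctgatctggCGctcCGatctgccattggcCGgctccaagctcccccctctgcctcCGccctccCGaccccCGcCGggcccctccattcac

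The Kcnmb2 run held 8 CpG and 47.2% G or C, against 16 CpG and 67.6% in the Kcnh7 run and 17 CpG and 62.0% in the Kcnj10 run. In the GENCODE annotation Kcnmb2 starts at chr3:31902507, so its run lies inside the annotated gene from that base on. The Kcnh7 and Kcnj10 runs lie just before their annotated genes, so the stretches are not alike in this. RefSeq promoters, counted from 250 bases before to 50 bases after the start, were at hand for 39 of the 56 members, with 53 promoters in all. Of these 53, 34.0% had a CpG ratio of observed to expected of at least 0.6, against 35.8% of all 32851 promoters. Their median content of G or C was 62% against 52.7% for all. The SP1 letters GGGCGG, searched on both strands, were in 29 member promoters (54.7%) and in 35.7% of all promoters. The letters TATAAA were in 4 (7.55%, against 13.6% of all), TGACGTCA (the cyclic AMP response element) in 0 (1.79% of all) and GAGGAAGT (PU.1) in 0 (3.20% of all). A match is a stretch of letters, not a measured binding site.

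More members were higher than lower in neurons, with Kcnh1, Kcnh7 and Kcnj6 among the higher ones and Kcnj10, Kcnj16 and Kcnk13 the farthest lower. Of 56 members, 31 were higher in the 9932 neurons and 9 were lower, with the other 16 within 2-fold, while 18.1% of the 13506 genes compared were higher and 21.8% were lower. All 40 also had the interval on the same side of 1, as 17.8% and 21.8% of genes did. The median log2 ratio was 1.51 over the members and -0.24 over all genes. The EAG and ERG channel genes Kcnh1 and Kcnh7 were 13.2-fold (95% interval 10.7 to 16.7) and 11.9-fold (11 to 12.8) higher in neurons, and Kcnj6, a subunit of the G protein-gated inward rectifier, was 11.1-fold (9.89 to 12.4) higher, or 21.7-fold in nuclei thinned to 1000 UMIs. Each of these 3 was higher in neurons in 5 of 5 barcode sets that had 50 nuclei on each side. Kcnma1, with the most UMIs of all members, was 2.91-fold higher (2.82 to 3.01), and 5.90-fold higher when clustering was finer. The 49 vascular nuclei held 2040 of the 3832 Kcnma1 UMIs on the non-neuronal side. Of the rest, Kcnb2 was 7.45-fold higher (13.5-fold thinned), Kcnmb2 10.6-fold (25.2-fold thinned) and Kcnv1 10.6-fold (6.74-fold with doublets kept), while Kcns1 had 1 UMI outside neurons and a ratio of 12.7 with an interval from 2.25 to 506, or 1 as a median over sets. Members with many UMIs that were not past 2-fold included Kcnab1, at 641 against 885 CPM, and Kcnk2, at 105 against 56.9 CPM, though Kcnk2 was 2.82-fold higher in thinned nuclei.

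Genes lower in neurons were led by Kcnj10, which encodes Kir4.1, the main inward rectifier of glia, at 1.05 CPM in neurons against 114 CPM in non-neuronal nuclei (109-fold, 95% interval 86.6 to 139). Its partner gene Kcnj16 (Kir5.1) was 41.0-fold lower (25.1 to 69.9), and Kcnk13, a two-pore channel gene known from microglia, was 34.1-fold lower (31.3 to 37.2). When unnamed clusters were put in their best class, Kcnj10, Kcnj16 and Kcnk13 were 52.5-fold, 26.5-fold and 19.99-fold lower. The other 6 were Kcnk6 (9.61-fold), Kcna6 (7.64-fold), Kcnh8 (5.04-fold, or 3.24-fold with unnamed clusters placed), Kcna1 (4.88-fold), Kcnrg (3.34-fold) and Kcnj2 (3.31-fold). None of the 9 was higher in neurons in any barcode set that could be compared. Counted per nucleus with no scaling to the total, where neurons carry more UMIs, 47 members were higher and 5 lower, and the log2 ratios of Kcnrg and Kcnj2 turned to 0.17 and 0.19. The share of all genes under that measure was not at hand, so these counts show nothing particular to the members.

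**Figure D1:**
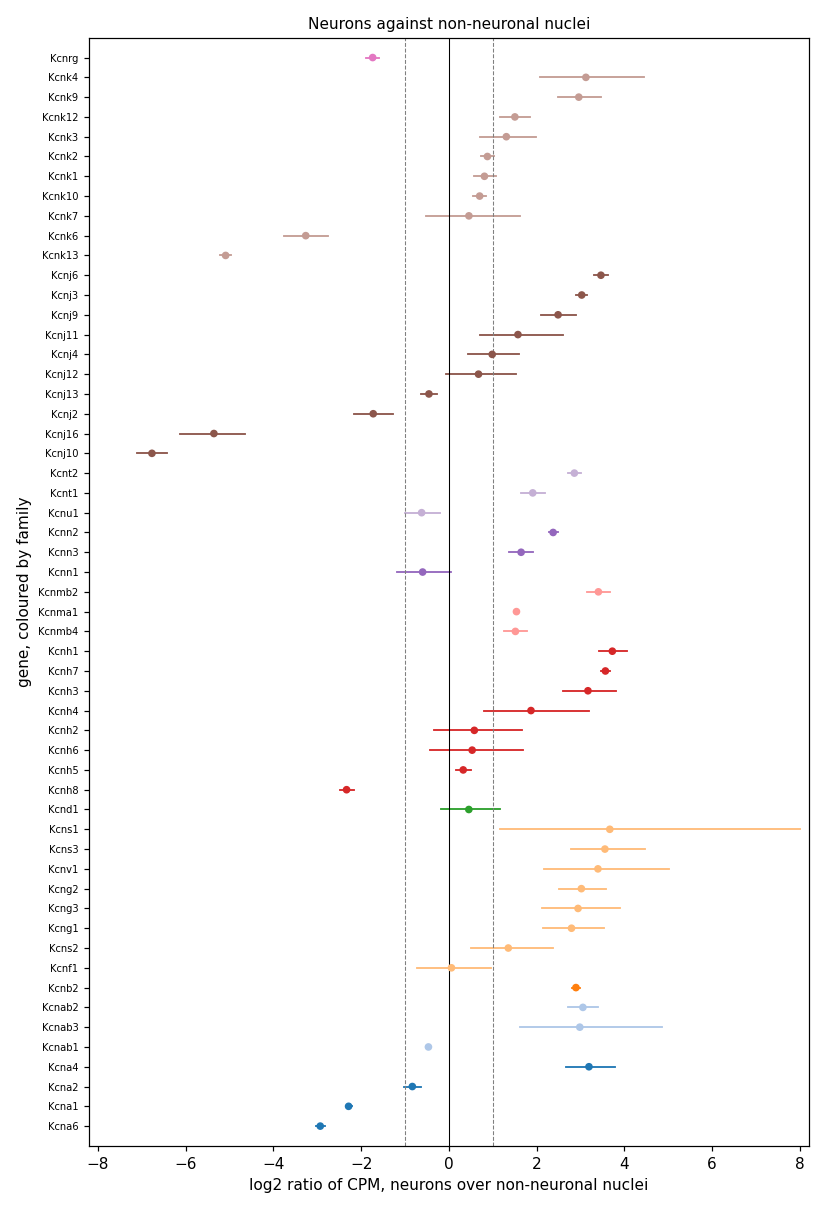
Log2 ratio of CPM, neurons over non-neuronal nuclei (x axis), for 55 members (y axis, coloured by family), with bars for the 95% counting interval and dashed lines at a 2-fold difference. Kcnj10 sits farthest left at a fold of 109 and 30 of the members drawn lie right of the dashed line at 1, and the bar of Kcns1, which reaches further, is drawn only up to 8.

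Partner proteins of these channels and transporters of potassium were read beside the members, from lists set with earlier results of these data known. Of 29 partner and auxiliary genes, 17 were higher in neurons and 3 lower. Lgi3, Cntn2 and Dlg1, the 3 lower ones, encode an axonal Kv1-associated protein, an adhesion protein of the myelinated axon and a scaffold. Among 15 sodium pump and chloride cotransporter genes, 5 were higher and 5 lower, with Slc12a5, the neuronal potassium-chloride cotransporter, at 97.1 against 16.8 CPM.

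Excitatory and inhibitory neurons differed most widely in Kcnmb2, an auxiliary subunit of the BK channel. Of 53 members, 16 were higher and 8 lower in the 8597 excitatory than in the 1335 inhibitory nuclei, where 9.63% and 8.01% of 13026 genes were. With the interval on the same side of 1 the members' counts were again 16 and 8, against 9.58% and 8.01% of genes. Kcnmb2, whose beta2 subunit makes the channel inactivate, was 90.3-fold lower in excitatory neurons, at 15.2 against 1372 CPM, and it was lower in 6 of 6 barcode sets. With unnamed clusters placed in their best class the fold of Kcnmb2 was 35.8. Kcns3, a silent partner of Kv2 channels, was 8.54-fold lower (95% interval 7.75 to 9.42), and Kcnh2 (ERG1) was 6.61-fold lower, or 3.63-fold with unnamed clusters placed. Further lower members were Kcnab3 (5.34-fold, or 3.53-fold with unnamed clusters placed), Kcnk13 (3.95-fold, or 2.13-fold), Kcna6 (2.95-fold, or 1.96-fold), Kcnk3 (2.63-fold) and Kcnt1 (2.42-fold). All 8 were lower in each of the 6 barcode sets.

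Of the silent subunits, Kcng1, Kcnv1, Kcng2 and Kcns1 were higher in excitatory neurons, Kcns3 was lower, and Kcnf1, Kcns2 and Kcng3 were within 2-fold. Kcng1 was 16.3-fold higher (95% interval 9.29 to 31.6), Kcnv1 13-fold (5.93 to 35.5) and Kcng2 6.72-fold (5.12 to 9.0). Counting an unnamed cluster of 398 nuclei with inhibitory markers, led by Prdm16, Ano1 and Zic1, among the inhibitory neurons brought these folds to 3.92, 5.84 and 2.80, while in thinned nuclei Kcng1 and Kcng2 were 32.6-fold and 21.7-fold higher. Kcnh3, an ELK channel gene of the forebrain, was 9.08-fold higher and above 1 in 6 of 6 sets. Kcnmb4, the other neuronal BK beta subunit, was 4.51-fold higher (3.74 to 5.50), opposite in direction to Kcnmb2. Kcnk9 (TASK3) was 4.37-fold higher, or 2.82-fold with that cluster, Kcna4 3.97-fold, or 2.60-fold with doublets kept, and Kcnk10 (TREK2) 3.16-fold. Kcnn3 was 3.11-fold higher, and its direction turned to a log2 ratio of -0.69 with that cluster, in which its level was 258.8 CPM. The other higher members were Kcnj2, Kcns1, Kcnk7, Kcnj4, Kcnj6, Kcnk4 and Kcnab2, at 2.21-fold to 5.10-fold. Of these, Kcns1 was 1.94-fold and Kcnk7 2.18-fold higher with doublets kept, and Kcnj2 2.19-fold as a median over sets. Keeping doublets also meant that nuclei were clustered and named anew, here and for Kcna4. With the unnamed cluster led by Prdm16 counted as inhibitory and doublets left out, Kcns1 was 2.02-fold and Kcnk7 2.315-fold higher.

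**Figure D2:**
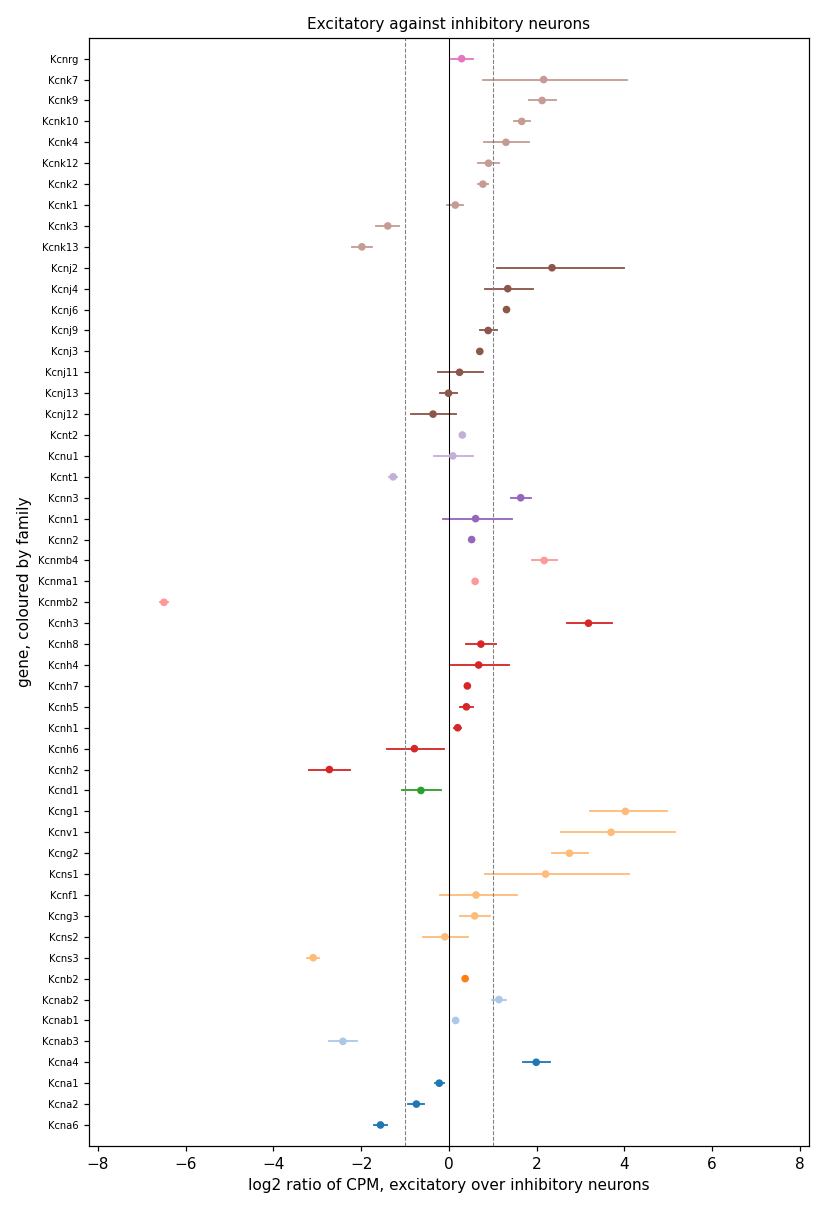
Log2 ratio of CPM, excitatory over inhibitory neurons (x axis), for 52 members (y axis, coloured by family), with 95% counting intervals as bars and dashed lines at a 2-fold difference. Kcnmb2 lies alone at the left, 90.3-fold lower in excitatory neurons, and Kcng1, Kcnv1 and Kcnh3 lie farthest right.

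Of 29 partner genes, 5 were higher in excitatory neurons and 1 was lower. Lingo1, a BK channel partner, was at 149 against 28.6 CPM, and Lgi2, a secreted synaptic protein, was the lower one at 10.2 against 43.3 CPM. Of 13 pump and cotransporter genes, 3 were higher and 2 lower.

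Dentate granule neurons had lower levels than CA1 pyramidal neurons of Kcnh7, Kcnn2 and Kcnt1, and higher levels of the silent subunits Kcng1, Kcng2 and Kcng3. The two-pore genes Kcnk1, Kcnk10 and Kcnk13 and the inward rectifier genes Kcnj2 and Kcnj4 were higher too, while the two-pore gene Kcnk4 was lower. Of 46 members, 14 were higher and 7 lower in granule neurons, where 7.06% and 8.26% of 11464 genes were. Kcnt1, the sodium-activated Slack channel, was at 5.15 against 66.3 CPM (12.9-fold lower, or 4.58-fold with unnamed clusters placed). Kcnn2 (SK2), which carries part of the current after an action potential, was 6.80-fold lower, and Kcnh7 (ERG3) 6.79-fold lower. Kcng3 was 8.12-fold higher (95% interval 6.28 to 10.6), Kcng2 3.85-fold (3.45 to 4.30), Kcnk1 (TWIK1) 3.82-fold (3.41 to 4.28) and Kcng1 3.03-fold (2.60 to 3.54), each in 6 of 6 sets. Kcnk13 was 7.95-fold higher in granule neurons, at 19.0 against 2.39 CPM, or 15.2-fold with unnamed clusters placed. Its level was 400 CPM in oligodendrocytes and 315 CPM in microglia, and glial RNA in neurons was not measured. The unnamed clusters whose best class was granule neurons were a cluster led by Siglech, Ikzf1 and Inpp5d and a cluster with raised oligodendrocyte markers. Their part in the 15.2-fold was not tested. Kcnh1 (2.71-fold), Kcnk10 (2.29-fold), Kcna1 (2.38-fold) and Kcnmb4 (2.0-fold) were higher in granule neurons too. So were Kcnj2, Kcnh4, Kcnj4, Kcnv1 and Kcnmb2 (4.95-fold, or 8.03-fold with unnamed clusters placed). Kcnmb2 was at 4.88 CPM in CA1 against 1838 CPM in somatostatin interneurons, and interneuron RNA in granule and CA1 neurons was not measured. The part of the unnamed clusters in the 8.03-fold was not tested.

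The other lower members in granule neurons were Kcns3 (9.64-fold), Kcnab3 (4.18-fold), Kcnk4 (2.65-fold) and Kcnd1 (2.10-fold), and as a median over sets Kcnab3, Kcnk4 and Kcnd1 were 2.33-fold, 1.72-fold and 1.38-fold lower. Among 28 partner genes, 4 were higher and 6 lower in granule neurons. Dpp10, an auxiliary subunit of Kv4 channels, was at 65.2 against 1030 CPM, and Cntnap2, which clusters Kv1 channels, at 380 against 6317 CPM. Of 13 pump and cotransporter genes, 1 was higher and 1 lower.

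CA2/CA3 pyramidal neurons had lower levels of Kcnh7 and higher levels of Kcng3 and Kcnk4 than CA1. Of 43 members, 7 were higher and 11 lower in CA2/CA3, where 4.68% and 3.92% of 11435 genes were. Per nucleus without scaling 14 were higher and 3 lower, with no share of all genes at hand. CA2/CA3 nuclei held a mean of 11680 UMIs against 7233 in CA1. Kcnh7 showed the widest gap at 110 against 2200 CPM (19.96-fold lower). With finer clustering the gap of Kcnh7 was 64.5-fold. Lower members also included Kcnt1 (3.40-fold, or 8.54-fold with finer clustering and 2.14-fold thinned), Kcnk9 (2.91-fold, or 7.54-fold with finer clustering) and Kcnj9 (2.51-fold, or 4.0-fold with finer clustering). Kcnk3 was 2.71-fold, Kcnh3 2.64-fold (4.10-fold thinned) and Kcns3 2.59-fold lower. The remaining lower ones were Kcnab3, Kcnd1, Kcnk12 and Kcnab1. The members higher in CA2/CA3 were Kcng3 (4.26-fold), Kcnk4 (3.74-fold), Kcnv1 (2.80-fold), Kcna1 (2.36-fold), Kcnh1 (2.31-fold), Kcng2 (2.26-fold) and Kcnmb2 (4.27-fold). The direction of Kcnmb2 did not hold with finer clustering, with a log2 ratio of -0.08.

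Granule and CA2/CA3 neurons were each compared with the same CA1 nuclei, so the results are not independent of each other. Of 29 partner genes, 4 were higher and 1 lower in CA2/CA3. Amigo2, a neuronal adhesion protein, was at 11.3 against 0.526 CPM, but it is among the markers that named the class. Of 12 pump and cotransporter genes, 1 was higher and 1 lower.

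Kv1 alpha subunits (Kcna) form low-threshold channels of axons. Kcna1 (Kv1.1), a gene of 5.99 kb at chr6:126640397-126646384, was highest in oligodendrocytes at 522 CPM, with values of 336, 385 and 797 CPM as the lowest, median and highest of 6 barcode sets. Parvalbumin interneurons came second at 157 CPM (sets from 117 to 236), and CA1 was the lowest of the excitatory classes at 41.5 CPM. The sets of oligodendrocytes did not overlap those of any class of neurons with at least 100 nuclei in all. Kcna6 (Kv1.6) had the same class at the top, 232 CPM in oligodendrocytes (sets from 183 to 290) and 80.0 CPM in precursors. Kcna4 (Kv1.4) was highest in dentate granule neurons at 58.0 CPM and at 2.88 CPM in parvalbumin interneurons. Kcna2 (Kv1.2) ranged from 13.5 CPM in microglia, from 8 UMIs, to 50.9 CPM in astrocytes, from 16 UMIs. Parvalbumin interneurons, at 46.8 CPM of Kcna2, were within counting error of astrocytes.

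The beta subunits of Kv1 channels differed from each other in where they were highest. Kcnab1 was at 1182 CPM in oligodendrocytes, 948 CPM in parvalbumin interneurons and 899 CPM in CA1. Its sets overlapped widely, from 559 to 1499 CPM in oligodendrocytes and from 787 to 1101 CPM in CA1. Kcnab2 was highest in CA1 at 116 CPM, with 102 CPM in granule neurons. Kcnab3 had 38.5 CPM in parvalbumin interneurons (sets from 24.7 to 43.5), and the next class, somatostatin interneurons, had 8.04 CPM, a gap of 4.79-fold (95% interval 2.98 to 8.06). An antisense gene, Kcnab3os, overlaps Kcnab3, and whether reads were counted by strand is not given in the sources used here.

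Kv2 alpha subunits (Kcnb) carry the slow delayed rectifier of the soma. Kcnb2 (Kv2.2), on chr1:15287254-15723750, was at 6216 CPM in Cajal-Retzius nuclei, with 5846, 6031 and 7543 CPM as the lowest, median and highest of 4 sets. That was 3.0-fold (95% interval 2.84 to 3.17) above the other excitatory neurons, the second class, at 2069 CPM (sets from 1934 to 2200). Parvalbumin interneurons were the lowest neurons for Kcnb2, at 337 CPM. Kcnd1 (Kv4.1) was low everywhere and highest in microglia at 18.5 CPM, from 11 UMIs.

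Silent subunits do not form channels alone but join Kv2 subunits. Kcns3 (Kv9.3) was at 213 CPM in the Lamp5 or Ndnf class (sets from 171 to 266) and 105 CPM in parvalbumin interneurons (sets from 83.6 to 141.5), and these sets did not overlap. In the Vip or Cnr1 class Kcns3 was at 14.7 CPM, so the Adarb2 classes stood apart. Kcng2 (Kv6.2) declined from 78.8 CPM in granule neurons to 46.2 CPM in CA2/CA3 and 20.5 CPM in CA1, and 2 granule sets, at 45.8 and 49.3 CPM, lay within the CA2/CA3 sets of 33.4 to 56.5 CPM. Kcng1 was highest in granule neurons at 34.5 CPM and had 0 UMIs in somatostatin interneurons, where 3 UMIs would be 1.15 CPM. Kcng3 was at 26.4 CPM in granule and 26.0 CPM in other excitatory neurons but 3.25 CPM in CA1. Kcnv1 (Kv8.1) was highest in CA2/CA3 at 14.2 CPM, while Kcns1, Kcns2 and Kcnf1 stayed under 10 CPM in every class.

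Kcnh genes encode the EAG, ERG and ELK channels, which shape excitability near threshold. Kcnh7 (ERG3), on chr2:62693414-63184287, was at 5853 CPM in Cajal-Retzius nuclei (sets of 4547, 5643 and 7055 CPM as the lowest, median and highest). CA1 had 2200 CPM (1927, 2125 and 2875), the Lamp5 or Ndnf class 2063 CPM and the subicular or cortical class 2037 CPM. Granule neurons with 324 CPM (253, 350 and 517) and CA2/CA3 with 110 CPM (68.7, 96.0 and 148) lay below CA1 in every set. The sets of CA1, granule and CA2/CA3 neurons did not overlap. A value of 251 CPM in astrocytes rests on 1 nucleus with 69 of the 79 UMIs. Gca lies within the span of Kcnh7 on the other strand.

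Kcnh1 (EAG1) was highest in granule neurons at 254 CPM, with 225 CPM in the Lamp5 or Ndnf class and 216 CPM in CA2/CA3, and at 30.2 CPM in somatostatin interneurons and 22.1 CPM in Cajal-Retzius nuclei. Kcnh3 was at 46.8 CPM in CA1 and 45.0 CPM in the subicular or cortical class, a difference within counting error. Kcnh5 (EAG2) was at 189 CPM in oligodendrocyte precursors and 144 CPM in other excitatory neurons. Kcnh8 (ELK1), on chr17:52602709-52979194, reached 346 CPM in precursors (sets of 252, 349 and 466 CPM) and 101 CPM in the subicular or cortical class (sets of 72.5, 83.7 and 164 CPM). In the remaining neuron classes Kcnh8 was at 2.79 to 12.6 CPM, so the subicular or cortical class as a whole was the highest among neurons. Within that class Kcnh8 was among the 10 leading genes of 1 cluster, with 299 of the 958 nuclei, and not of the other clusters. Kcnh2, Kcnh4 and Kcnh6 had their highest levels at 9.65 CPM in the Vip or Cnr1 class, 11 CPM in other excitatory neurons and 5.61 CPM in the subicular or cortical class.

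BK channels combine the pore Kcnma1 with beta subunits. Kcnma1 (chr14:23289431-24014491) had 1892 CPM in CA2/CA3, 2184 CPM in other excitatory and 1753 CPM in parvalbumin neurons, and 589 and 651 CPM in the Adarb2 classes. Vascular nuclei showed 11580 CPM, but 2037 of these 2040 UMIs were from barcode set 2 and 375 from 1 nucleus, and set 2 gave 22 of the 49 nuclei. Kcnmb2 (chr3:31902507-32200180) was at 1838 CPM in somatostatin interneurons, with 1129, 1862 and 2125 CPM as the lowest, median and highest of 6 sets. Parvalbumin interneurons had 1429 CPM (1112, 1423 and 1580), the Lamp5 or Ndnf class 1093 CPM and the Vip or Cnr1 class 948.5 CPM.

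In CA1, 86 nuclei (2.98%) had a Kcnmb2 UMI, against 361 (91.9%) in somatostatin interneurons, and CA1 stood at 4.88 CPM. Granule neurons had 24.2 CPM and CA2/CA3 20.9 CPM of Kcnmb2, and no set of any excitatory class came above 52.0 CPM. Cajal-Retzius nuclei were between the groups with 323 CPM. Kcnmb4, the beta4 subunit that slows BK activation, was highest in the subicular or cortical class at 98.8 CPM, with 75.4 CPM in oligodendrocyte precursors, 68.0 CPM in granule neurons and 6.12 CPM in parvalbumin interneurons. Astrocytes had 0 UMIs of Kcnmb4, where 3 UMIs would be 9.55 CPM. Antisense genes overlap Kcnmb4.

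SK channels (Kcnn) open with calcium alone. Kcnn2, on chromosome 18, was at 1018 CPM in CA1 (sets of 696, 940 and 1206 CPM) and 885 CPM in astrocytes (421, 883 and 1393 CPM over 4 sets). Astrocytes with a UMI of Kcnn2 numbered 97 of 129, and the level was 1.72-fold that of all other classes together (95% interval 1.52 to 1.93), or 2.61-fold in set 1 alone. Granule neurons had 150 CPM of Kcnn2 (81.9, 165 and 208), below every CA1 set. Kcnn3 (SK3) was at 137 CPM in astrocytes, 87.4 CPM in other excitatory neurons and 6.51 CPM in somatostatin interneurons, and the unnamed cluster led by Prdm16 had 258.8 CPM. Kcnn1 (SK1) was under 10 CPM in every class.

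Sodium-activated channels differed by class. Kcnt1 was at 185 CPM in parvalbumin interneurons, 181 CPM in astrocytes, 169 CPM in the subicular or cortical class and 5.15 CPM in granule neurons. Its sets spread widely, from 109 to 399.5 CPM in parvalbumin interneurons, and a value of 39.3 CPM in 1 granule set overlapped the CA1 sets of 26.0 to 112. Kcnt2 (Slick) had another order, with 636.5 CPM in the Vip or Cnr1 class, 506 CPM in CA2/CA3, 462 CPM in granule neurons and 73.8 CPM in parvalbumin interneurons. Kcnu1, a sperm channel gene, was under 11 CPM in every class.

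Inward rectifiers (Kcnj) had their highest levels in several classes of neurons and glia. Kcnj3, Kcnj6 and Kcnj9 encode subunits of the channel opened by G protein-coupled receptors such as GABA-B. Kcnj6 was highest in granule neurons at 840.5 CPM (sets of 668, 829 and 879), and no set of CA1 (438 to 503 CPM) or CA2/CA3 (445 to 598 CPM) came up to them. Kcnj3 was also highest there, at 877 CPM (631, 877 and 978), but its sets overlapped those of CA1 (545 to 828 CPM). Kcnj9 was highest in other excitatory neurons at 89.4 CPM and at 16.3 CPM in CA2/CA3. Kcnj4 (Kir2.3) was at 15.9 CPM in granule neurons, Kcnj12 (Kir2.2) at 10.3 CPM in other excitatory neurons and Kcnj11 (Kir6.2), part of the channel closed by ATP, at 7.51 CPM in granule neurons.

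Kcnj10 (chr1:172341210-172374085) was at 185 CPM in astrocytes (sets of 105, 169 and 223.5 CPM over 4 sets), 135 CPM in oligodendrocytes (104, 125 and 161 CPM over 6 sets) and 72.6 CPM in precursors. Each neuron class apart from Cajal-Retzius nuclei was at or under 2.16 CPM of Kcnj10. Astrocyte and oligodendrocyte sets overlapped, while no set of neurons came above 13 CPM. Kcnj16 was at 79.6 CPM in astrocytes and 48.7 CPM in precursors but 0.414 CPM in oligodendrocytes, where Kcnj10 was not low. Kcnj2 (Kir2.1) was at 21.9 CPM in microglia, from 13 UMIs. Kcnj13 (Kir7.1), known from epithelia, had 19.7 to 40.7 CPM in every class, and the gene lies inside Gigyf2 on the other strand.

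Two-pore channels (Kcnk) differed from gene to gene in their classes. Kcnk13 (THIK1) was at 400 CPM in oligodendrocytes (sets of 323, 395.5 and 518) and 315 CPM in microglia (224, 292 and 414). Precursors had 68.0 CPM of Kcnk13, and CA1, CA2/CA3, subicular or cortical and other excitatory neurons had 2.39 to 3.93 CPM. Its relative Kcnk12 (THIK2) was at 75.8 CPM in microglia and 40.4 CPM in granule neurons. Kcnk6 (TWIK2) was at 106 CPM in microglia (44.9, 108 and 177) from 63 UMIs in 54 nuclei, and no other named class had more than 6.37 CPM. Kcnk6 had 0 UMIs in 2567 oligodendrocyte nuclei, where 3 UMIs would be 0.62 CPM.

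The mechanically and lipid-gated genes Kcnk2 (TREK1) and Kcnk10 (TREK2) were shared between classes of neurons and oligodendrocyte precursors. In oligodendrocytes and microglia both lay within the range of the 8 neuronal genes, as did Kcnk10 in astrocytes. Kcnk2 was at 518 CPM in Cajal-Retzius nuclei (383, 524 and 676 CPM over 4 sets), 235.5 CPM in astrocytes, 222 CPM in other excitatory neurons and 212 CPM in precursors. Kcnk10 was at 222.5 CPM in precursors (166, 201 and 311), 160 CPM in other excitatory and 126 CPM in granule neurons. Kcnk1 was at 146 CPM in astrocytes, 75.4 CPM in granule neurons and 19.2 to 23.6 CPM in the other excitatory classes. Kcnk4 (TRAAK) was at 20.4 CPM in CA2/CA3 and 19.2 CPM in other excitatory neurons, within counting error of each other, and it shares a strand with the overlapping Catsperz. The TASK genes Kcnk3 and Kcnk9 were opposite in parvalbumin interneurons, at 30.2 and 3.24 CPM, while in CA1 they were at 8.28 and 52.7 CPM. Kcnk7 had 3 UMIs in microglia, its highest class, and stayed under 6 CPM throughout. Kcnrg, which encodes a regulator of Kv1 assembly rather than a channel, was at 216 CPM in microglia (74.7, 206 and 278), and Dleu2 overlaps it on the other strand.

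**Figure D3:**
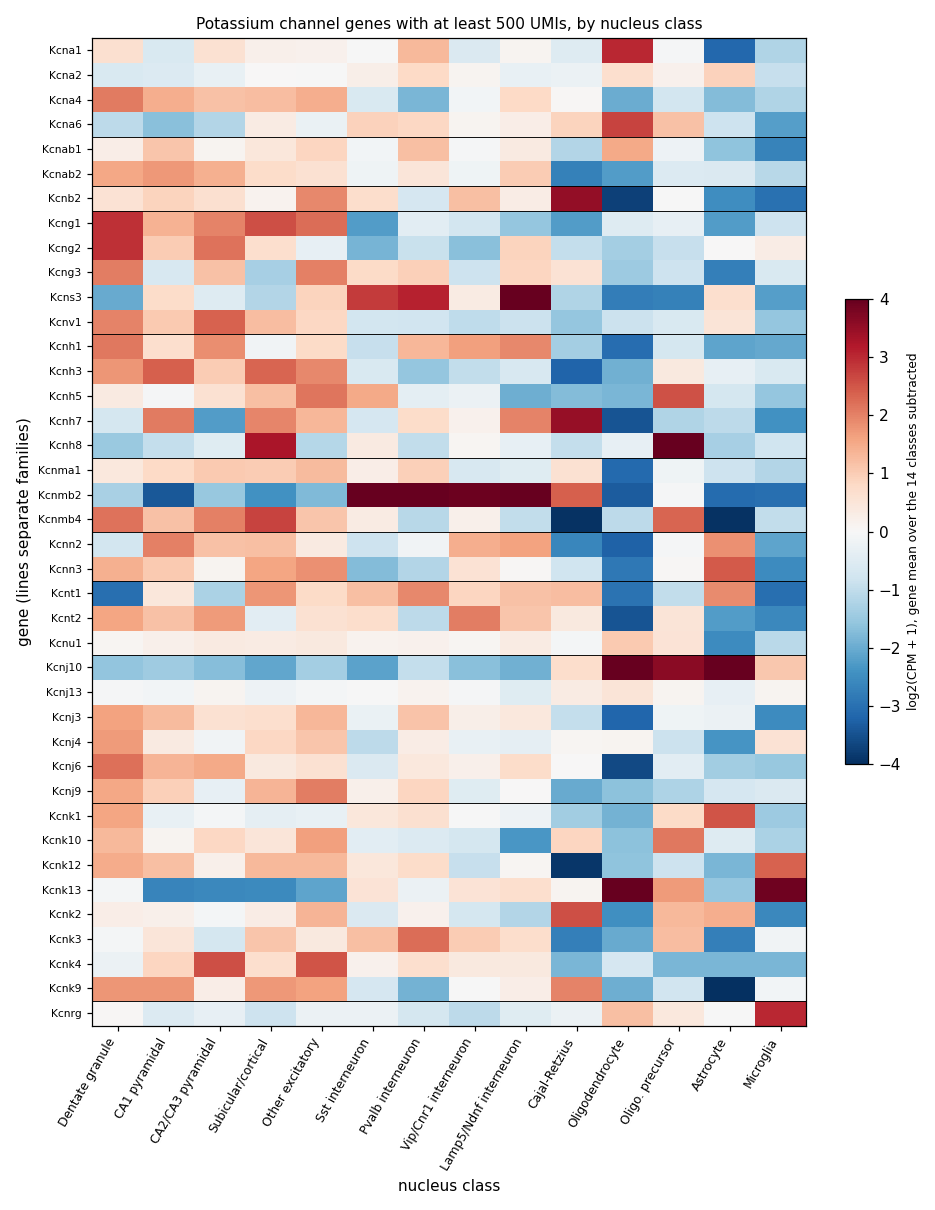
Log2 of CPM plus 1 with the mean of each gene over 14 classes subtracted (colour, shown from -4 to 4), for 40 members with at least 500 UMIs (rows, lines between families) in 14 classes (columns). Kcnmb2 is raised in the 4 interneuron classes, Kcnj10 in the 3 glial classes of oligodendrocytes, precursors and astrocytes, and Kcnk13 in oligodendrocytes and microglia; vascular nuclei are left out.

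Oligodendrocyte precursors had more of the members than oligodendrocytes. Of 21 members with enough UMIs, 13 were higher in precursors and 4 lower, where 14.6% and 16.2% of 7332 genes were. The neuronal genes stood at 15.2% of their excitatory level in precursors and 3.55% in oligodendrocytes, and 5 of 7 of them were higher in precursors. Their part in the 13 was not tested. Kcnh8 was 46.4-fold higher (95% interval 32.9 to 67.3, or 26.4-fold with unnamed clusters placed) and Kcnh5 22.9-fold higher (16.3 to 33.0), and both were higher in precursors than in excitatory neurons as a whole. Others were Kcnt2 (16.6-fold), Kcnk10 (14.3-fold), Kcnk2 (14.2-fold), Kcnb2 (13.3-fold), Kcnmb4 (11.8-fold), Kcnj6 (9.67-fold), Kcnn2 (9.62-fold), Kcnj3 (8.17-fold), Kcnma1 (7.66-fold) and Kcnh7 (4.76-fold). In precursors Kcnj6 and Kcnh7 stood at 25.9% and 19.5% of their excitatory level, within the 35.6% that the neuronal genes reached there. Kcnj3, at 38.0%, and Kcnn2, at 42.0%, were little above it, and the rest of those named were higher. As a median over sets Kcnk10 was 42.1-fold, Kcnmb4 21.3-fold, Kcnj3 14.7-fold and Kcnj6 6.03-fold higher. With unnamed clusters placed Kcnk2 was 9.40-fold, Kcnb2 7.08-fold and Kcnh7 2.56-fold higher.

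The 4 members lower in precursors were Kcna1 (8.47-fold, 95% interval 6.67 to 11, or 13-fold thinned), Kcnk13 (5.88-fold), Kcnab1 (3.25-fold) and Kcna6 (2.91-fold). Each was lower in 4 of 4 sets. Of 20 partner genes, 8 were higher and 4 lower in precursors, and Cntn2, at 32.2 against 389 CPM, and Lgi3, at 25.7 against 210 CPM, were lower together with Kcna1. Of 8 pump and cotransporter genes, 2 were higher and 2 lower.

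Astrocytes had few nuclei, 129, of which 70 were from barcode set 1. Of 56 members, 9 were higher and 24 lower than in all other classes together, where 21.4% and 15.2% of 13519 genes were, and 7 and 23 with the counting interval on the same side of 1, where 16% and 10.9% of genes were. Set 1 was the only one with 50 astrocytes, so its values stand alone and show no spread between sets. Without set 1 there were 6 and 18, and per nucleus without scaling 2 were higher, with no share of all genes at hand for these counts. Kcnj16 was 86.2-fold higher (95% interval 52.6 to 137) and Kcnj10 18.4-fold higher (13.9 to 24.1, or 10.1-fold in thinned nuclei). Next were Kcnk1 at 4.53-fold, or 2.66-fold without set 1, Kcnt1 at 3.12-fold, or 2.04-fold without set 1 and 12.4-fold in set 1 alone, Kcnn3 at 2.88-fold, or 6.40-fold in set 1 alone, Kcnk2 at 2.33-fold and Kcna2 at 2.22-fold. Kcna2 and Kcnk2 were not higher per nucleus without scaling, with log2 ratios of -0.19 and -0.12. Kcnk6 and Kcnn1, with 2 UMIs each, had intervals that spanned 1. Among the lower members were Kcnab1 at 4.95-fold, or 7.89-fold in set 1 alone, and Kcnma1 at 2.92-fold. The level of the 8 neuronal genes moved with the lower members, with 7 of 8 lower in astrocytes, and their part was not tested. Of 29 partner genes 1 was higher and 13 lower, and of 15 pump and cotransporter genes 5 were higher and 4 lower.

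Microglia, the immune cells of the brain, had 7 members higher and 33 lower than all other classes, where 26.3% and 21.2% of genes were, and 6 and 30 with the counting interval on the same side of 1, where 23.7% and 17.1% of genes were. The share of higher members, 12.5%, was thus under that of all genes. Per nucleus without scaling 3 were higher, with no share of all genes at hand. Kcnk6 was 112-fold higher (95% interval 78.9 to 158), Kcnk13 9.54-fold (8.18 to 11.1, or 3.95-fold in thinned nuclei) and Kcnrg 9.39-fold (7.79 to 11.2). Kcnj2 was 7.69-fold higher (4.03 to 13.4), Kcnd1 4.73-fold (2.34 to 8.57) and Kcnk12 2.72-fold (1.98 to 3.65), the last with a log2 ratio of -0.58 per nucleus without scaling. All 6 were higher in 4 of 4 sets. Kcnk7, the other higher member, had 3 UMIs in microglia and a ratio of 2.99 with an interval from 0.608 to 8.91. Of the 8 neuronal genes, 7 were lower in microglia, and their part in the 33 was not tested. Of 29 partner genes, 1 was higher and 18 lower, and of 15 pump and cotransporter genes, 3 and 3.

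The class with the highest level differed from member to member. Of the 56 members, 8 were highest in granule neurons, 6 each in oligodendrocytes and microglia, 5 each in Cajal-Retzius and vascular nuclei, and 4 each in astrocytes and other excitatory neurons. The share of all genes highest in each class was not at hand, so these counts show no trait of the members. Some leads rest on few UMIs, such as Kcnk7 in microglia and Kcnj12 in vascular nuclei, with 3 each. In 7 of the 8 granule genes (Kcnh1, Kcnj3, Kcna4, Kcng1, Kcnj4, Kcnj6 and Kcng2, with Kcng3 the exception) the gap to the second class was beyond counting error. The Cajal-Retzius genes were Kcnb2, Kcnh7, Kcnk2, Kcnj11 and Kcnk9, of which the first 3 stood beyond counting error and Kcnj11 rested on 4 UMIs. The gap was beyond counting error for 4 of the 6 oligodendrocyte, 4 of the 6 microglia, 3 of the 4 other excitatory and 2 of the 4 astrocyte genes. The 5 vascular genes, 1 of them beyond counting error, Kcnn3, Kcnma1, Kcnj12, Kcnh5 and Kcnh8, rest on 49 nuclei with a high share of neuronal RNA. There they stood at 307% (Kcnn3) to 2509% (Kcnh8) of their excitatory level, against at most 77.1% for the neuronal genes. The part of neuronal RNA in these leads was not tested. The other classes led for 1 to 3 members each, among them Kcnmb2 in somatostatin interneurons and Kcns3 in the Lamp5 or Ndnf class.

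Members with under 500 UMIs were Kcnj11 (452), Kcnd1 (437), Kcnab3 (418), Kcnh4 (361), Kcnj12 (355), Kcns2 (353), Kcnj2 (315), Kcnh2 (309), Kcnn1 (261), Kcnh6 (241), Kcnf1 (236), Kcnk6 (205), Kcnk7 (182), Kcns1 (167) and Kcnj16 (122). Of these, Kcnk6, Kcnj2, Kcnd1 and Kcnk7 were highest in microglia, Kcnj16 in astrocytes and Kcnab3 in parvalbumin interneurons. Kcnh4 and Kcns1 were highest in other excitatory neurons, Kcnh6 and Kcnf1 in the subicular or cortical class, Kcnh2 and Kcns2 in the Vip or Cnr1 class, and Kcnn1 in oligodendrocyte precursors.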

How the data were processed

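Single-nucleus RNA was sequenced with 10x 3' chemistry, and reads were processed with Cell Ranger 4.0.0 on mm10/GRCm38, per the submitters' processing notes. The values deposited by the authors are raw UMI counts, whole numbers for each gene in each barcode. Intron counting, strand setting and further filters: not given in the sources used here. Gene positions are from GENCODE M21 on GRCm38, to which all 56 members matched.

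Filters kept nuclei of 500 UMIs and 300 genes or more whose mitochondrial UMIs were below 5% (15553 of 15661 barcodes). Scrublet in scanpy 1.11.5 was run per barcode set (expected rate 5%) and 211 doublets were removed. After leaving out all Kcn genes and listed genes (161 in all), 2000 variable genes and the markers, 2066 features, gave 30 principal components, 15 nearest neighbours and 33 Leiden clusters at resolution 1 (leidenalg 0.10.2). A cluster took a name if 3 or more markers and 50% or more of that list (33.3% for the subicular or cortical list) were high, that is at 25% or more of their highest level and in 5% or more of its nuclei, unless markers of another class were raised or led its 10 leading genes (ranked with 5 CPM added). These thresholds were set after clusters were seen.

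UMIs were summed per class. Intervals are exact Poisson for levels and exact conditional for ratios, at 95%, with a floor of 3 UMIs where a side had none. The ratio script was tested on simulated data. Ranges over barcode sets use sets with at least 50 nuclei of a class, or 10 in classes under 500 nuclei. The members and lists were chosen with earlier results of these data known. Members named in a comparison are those past 2-fold with the interval on 1 side of 1, by size, up to 30, and the member with most UMIs in each family; other genes come from the lists alone. Alternatives were doublets kept, 1000 UMIs per nucleus, unnamed clusters placed, resolution 2, nuclei thinned to 1000 UMIs, the median over sets, leaving out set 1 or sets 5 to 7, a minimum of 500 UMIs, and means per nucleus without scaling. With doublets kept, and at resolution 2, new clusters were made and named anew, so nuclei could also change class. Counting 1 Zic1 cluster as inhibitory was added after seeing the data. Values of 1 member and of some listed genes are in the counts but are not reported here.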

Additional observations from a re-analysis of the deposited data

How the results depend on the processing

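With doublets kept, 1000 UMIs per nucleus, unnamed clusters placed, finer clustering, the median over barcode sets (for astrocytes set 1 alone), set 1 or sets 5 to 7 left out, or the Zic1 cluster counted as inhibitory, all 14 counts of higher and lower members stayed within 1.5 times. Keeping doublets returned the 211 called ones. Doublets that the caller missed are in both settings, so this setting cannot show how the counts depend on them. As means per nucleus without scaling, counts moved to 47 higher and 5 lower in neurons (31 and 9), 14 higher and 3 lower in CA2/CA3 against CA1 (7 and 11), 2 lower in precursors (4), 2 higher in astrocytes (9) and 3 higher in microglia (7). With nuclei thinned to 1000 UMIs, they moved to 5 lower in excitatory neurons (8), 6 higher and 3 lower in granule neurons (14 and 7), 4 higher and 7 lower in CA2/CA3 (7 and 11), 7 higher in precursors (13), 5 higher in astrocytes (9) and 3 higher in microglia (7). With at least 500 UMIs over both sides, they moved to 9 higher and 3 lower in granule neurons, 3 higher in CA2/CA3, 2 higher in precursors and 3 higher in microglia. Both latter settings leave fewer members to compare. Shares of all genes were at hand for the main setting alone. Among members called higher or lower, log2 ratios that changed sign were those of Kcnj2 (0.19) and Kcnrg (0.17) in neurons, Kcna2 (-0.19) and Kcnk2 (-0.12) in astrocytes and Kcnk12 (-0.58) in microglia, all per nucleus, and that of Kcnmb2 in CA2/CA3 with finer clustering (-0.079). Kcnn3 in excitatory against inhibitory neurons changed to -0.65 with doublets kept, -0.64 with unnamed clusters placed, -0.76 with finer clustering and -0.69 with the Zic1 cluster as inhibitory; the cause was not tested. Uncalled members changed sign too, such as Kcnd1 in astrocytes, from 0.66 to -0.27 with 1000 UMIs per nucleus, and Kcnrg there, from 0.07 to -1.84 thinned. No paired analysis was possible because all samples form 1 group and the barcode sets are not tied to samples. Depth limits genes under 10 CPM in classes with few nuclei, such as astrocytes, where 3 UMIs are 9.55 CPM.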
